A study of Homo sapiens and Mus musculus with 16 samples.

Results

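The long noncoding RNAs described here, 8 in all, were followed in 2 cancer cell lines with and without PD-L1: the abundant nuclear RNAs MALAT1 and NEAT1, the small nucleolar RNA (snoRNA) host genes GAS5, SNHG1 and SNHG12, and the imprinted RNAs H19, MEG3 and KCNQ1OT1. They were picked by gene symbol, 8 rows in the human table and 8 in the mouse table, 16 of 112509 gene rows in all. Of the 8 members in each line, 5 reached the expression filter of at least 1 FPKM (fragments mapped to a transcript, scaled by its length and by the library's mapped fragments) in 4 or more of the 8 libraries; H19, MEG3 and KCNQ1OT1 did not, in either line.

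The 16 RNA sequencing libraries form 4 groups of 4. They are cells of the human line MDA-MB-231, from triple-negative breast cancer, with PD-L1 KO and with wild type PD-L1 (WT), and CT26, a mouse colon carcinoma line, with Pd-l1 KO and with wild type Pd-l1. PD-L1, encoded by CD274 (Cd274 in mouse), is the surface protein that engages PD-1 on T cells, and it was disrupted with CRISPR delivered by lentivirus. Both lines grew in medium with serum and antibiotics, and no other agent is labelled. The labels do not say whether the knockout cells were a clone or a pool, nor whether a group's 4 libraries stem from cultures grown apart, so the p-values measure library-to-library spread only, and that may be technical.

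As background, MALAT1 is retained in nuclear speckles, compartments rich in splicing factors, and RNase P cuts a small tRNA-like RNA off its 3′ end. NEAT1 is the scaffold of paraspeckles, nuclear bodies that form around its long isoform. The introns of GAS5, SNHG1 and SNHG12 hold snoRNAs that guide ribosomal RNA modification, and the spliced remainder of such host transcripts is commonly translated briefly and then removed by nonsense-mediated decay (NMD). H19 and MEG3 are expressed from the maternal allele and KCNQ1OT1 from the paternal allele of imprinted clusters.

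CD274 mRNA stood at 9.93, 11.6, 8.19 and 12.5 FPKM in MDA-MB-231 KO libraries, against 12.3, 11.2, 12.5 and 12.8 FPKM in WT libraries (log2 fold change -0.21, SE 0.12, limma adjusted p = 0.166), and the groups overlapped. Cd274 was at 0.445 to 0.569 FPKM in CT26 KO libraries, against 1.23 to 1.504 FPKM in WT libraries, and the groups did not overlap. Since Cd274 reached the filter through the WT libraries alone, its values are given without a test. An mRNA level is no measure of the edited alleles or of the protein, and groups are named here by their labels. Expression differed widely between KO and WT in both lines. In MDA-MB-231, 68.2% of 14450 tested genes changed (42.6% higher and 25.7% lower in KO libraries), and in CT26, 55.8% of 11342 genes changed (22.3% higher and 33.5% lower). The direction of that split depended on scaling: under upper-quartile scaling 49.4% of the changed genes were higher in MDA-MB-231 KO libraries, against 62.4% without it, and in CT26 the share was 53.9% against 40.0%. The median log2 fold change over all tested genes was 0.18 in MDA-MB-231 and -0.06 in CT26, and upper-quartile scaling put it at -0.01 and 0.03. Changes are therefore also given relative to the median. Libraries correlated with the others of their group at a mean r of 0.966 to 0.980. Absolute depth is unknown from FPKM. The size of the smallest steps between low values put the MDA-MB-231 KO libraries at 0.509 to 0.779 of the depth of WT library 1. The other WT libraries stood at 0.941 to 1.21. The estimate is rough, because 75.9% of the low values were whole steps within 2%. Even that share overstates the fit, since each gene's smallest value counts as whole by construction. In CT26 the same estimate gave 0.926 to 2.49 in KO libraries and 0.799 to 1.14 in WT libraries. The part of depth in any result was not tested.

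In MDA-MB-231 the neighbouring nuclear RNAs MALAT1 and NEAT1 were both far lower in KO cells, at 18.0% and 19.5% of the WT level. MALAT1 (ENSG00000251562) lies on hg38 chromosome 11, bases 65497688 to 65506516 on the plus strand in GENCODE 29, and is a long intergenic noncoding RNA gene of 8829 bases. NEAT1 (ENSG00000245532) lies upstream on the same strand, bases 65422774 to 65445540, with 52147 bases between the genes, and its 8 annotated transcripts run from 512 to 22743 spliced bases. The table gives 1 value per gene, so the short and long isoforms of NEAT1 were not resolved. RefSeq has 2 promoter windows for MALAT1, and the upstream one is shown because this gene had the steepest fall among the members. It covers GRCh38.p14 chr11:65497488-65497787 on the plus strand, 250 bases before the transcription start and 50 from it on, and the capitals mark the first 12 transcribed bases.
MALAT1: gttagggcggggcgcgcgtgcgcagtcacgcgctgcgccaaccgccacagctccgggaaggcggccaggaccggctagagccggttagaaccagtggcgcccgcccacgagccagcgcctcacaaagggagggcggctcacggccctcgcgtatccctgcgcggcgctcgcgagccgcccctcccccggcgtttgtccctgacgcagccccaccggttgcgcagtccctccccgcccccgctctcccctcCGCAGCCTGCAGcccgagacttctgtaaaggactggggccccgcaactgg
This window is 73.7% G and C and holds 37 CpG dinucleotides. It holds the GC box letters GGGCGG 5 times when both strands are read, which 45.0% of all 35116 RefSeq windows hold at least once, and neither TATAAA nor CCAAT. The other window, chr11:65498795-65499094 with a start further downstream, differs: it is 46.0% G and C, holds 14 CpG dinucleotides, no GGGCGG and no CCAAT, and TATAAA once, 30 bases before its start, which 11.5% of all windows hold. The expression table does not tell the 2 starts apart. RefSeq windows were found for 6 of the 8 members, NEAT1 and KCNQ1OT1 being the others.

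MALAT1 measured 16.7, 14.1, 10.5 and 15.5 FPKM in the MDA-MB-231 KO libraries, against 85.6, 85.7, 80.0 and 65.5 FPKM in the WT libraries. The highest KO library was far below the lowest WT library. The mean of 14.2 ± 2.66 FPKM in KO libraries was 18.0% of the 79.2 ± 9.49 FPKM in WT libraries (SD, n = 4 each). On the log2(FPKM + 1) scale MALAT1 fell by 2.41 (SE 0.14, 95% interval -2.73 to -2.08, limma adjusted p = 8.75e-07), or by 2.59 relative to the median gene. NEAT1 measured 73.4, 59.2, 54.7 and 75.9 FPKM in KO libraries, against 384, 322, 334 and 310 FPKM in WT libraries. Again the groups were far apart, and the KO mean of 65.8 ± 10.4 FPKM was 19.5% of the WT mean of 338 ± 32.4 FPKM (SD, n = 4 each). NEAT1 fell by 2.35 (SE 0.12, 95% interval -2.61 to -2.09, limma adjusted p = 2.89e-07). Groups that do not overlap were common in this line (62.7% of tested genes). By size of change, MALAT1 ranked 473 and NEAT1 505 among the 14450 genes. In WT libraries NEAT1 stood above 97.8% of tested genes and MALAT1 above 88.7%, and in KO libraries they stood above 83.7% and 52.5%.

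**Figure D1:**
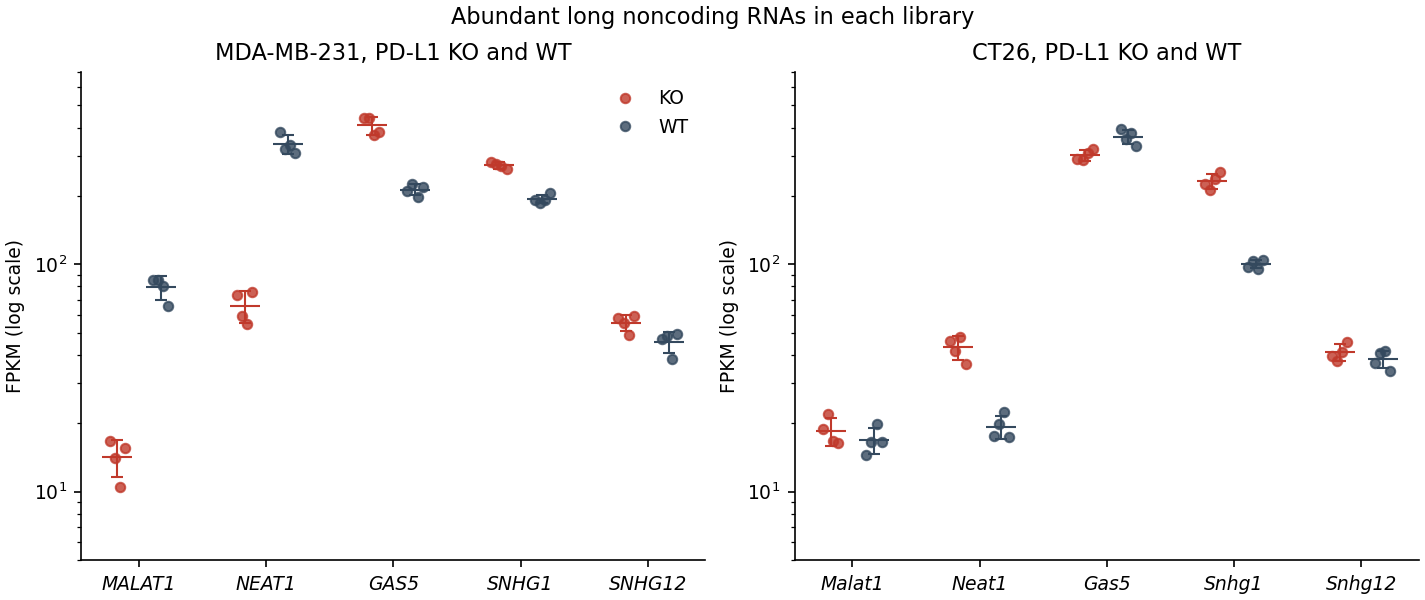
FPKM of the 5 expressed members in each library (points, log axis), with the group mean (line) and SD (bars, n = 4), KO left of WT, MDA-MB-231 on the left and CT26 on the right. MALAT1 and NEAT1 lie at 10.5 to 16.7 and 54.7 to 75.9 FPKM in MDA-MB-231 KO libraries, well under the WT libraries, while in CT26 Neat1 lies higher in KO libraries and Malat1 overlaps.

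Short annotated features near the start of NEAT1, named after their Rfam families and picked after their values were seen, are listed separately in the table. They share sequence with NEAT1, so reads may be split between the rows, and on features this short FPKM values are unsteady. RF01956, 105 bases long, at bases 865 to 969 of NEAT1, had 1138, 845, 258 and 996 FPKM in KO libraries, against 3668, 3421, 3706 and 3261 FPKM in WT libraries. RF01955, 120 bases long, at bases 500 to 619, had 524, 540, 232 and 526 FPKM in KO libraries, against 1817, 1261, 1045 and 1665 FPKM in WT libraries. Both lay lower in KO libraries without overlap, as NEAT1 did (limma adjusted p = 9.71e-04 and 7.63e-04). KO library 3 was the lowest for both. RF01957, 159 bases long, was listed at 0 in KO libraries 2 and 3 and in WT library 4 and its groups overlapped.

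In CT26 the same pair did not follow that pattern. Malat1 (ENSMUSG00000092341, mm10 chromosome 19, 5795690 to 5802672 in the deposited table) measured 18.8, 22.0, 16.6 and 16.4 FPKM in KO libraries, against 14.5, 16.5, 19.8 and 16.5 FPKM in WT libraries. The groups overlapped, and the difference of 0.13 on the log2 scale (SE 0.11, 95% interval -0.14 to 0.39, limma adjusted p = 0.378) did not pass the test; a fall of the size seen in MDA-MB-231 lies outside this interval. Neat1 (ENSMUSG00000092274, chromosome 19, 5824708 to 5845478) measured 46.2, 41.8, 48.0 and 36.5 FPKM in KO libraries, against 17.6, 19.9, 22.4 and 17.4 FPKM in WT libraries. All 4 KO libraries were above the 4 WT libraries, and the KO mean was 2.23 times the WT mean. Neat1 rose by 1.12 (SE 0.10, 95% interval 0.88 to 1.36, limma adjusted p = 4.12e-05), the 382nd change by size among 11342 genes. Groups without overlap made up 51.5% of tested genes in CT26.

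The difference between the lines was tested directly as a line-by-genotype interaction over 8667 genes paired by symbol, of which 72.2% were called (50.1% more positive and 22.0% more negative in MDA-MB-231). The KO against WT change in MDA-MB-231 minus that in CT26 was -3.47 for NEAT1 (SE 0.16, limma adjusted p = 5.77e-12) and -2.53 for MALAT1 (SE 0.19, adjusted p = 2.32e-09). NEAT1 thus moved in opposite directions in the 2 lines. GAS5 also moved in opposite directions (difference 1.20, SE 0.09, adjusted p = 4.41e-09), and SNHG1 rose in both lines but by more in CT26 (difference -0.71, SE 0.07, adjusted p = 1.34e-07). For SNHG12 no difference was detected (0.18, 95% interval -0.09 to 0.44, adjusted p = 0.213). The lines differ in species, tissue of origin and medium, which cannot be told apart here, and the tables were normalized separately, so only changes within each table are compared.

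**Figure D2:**
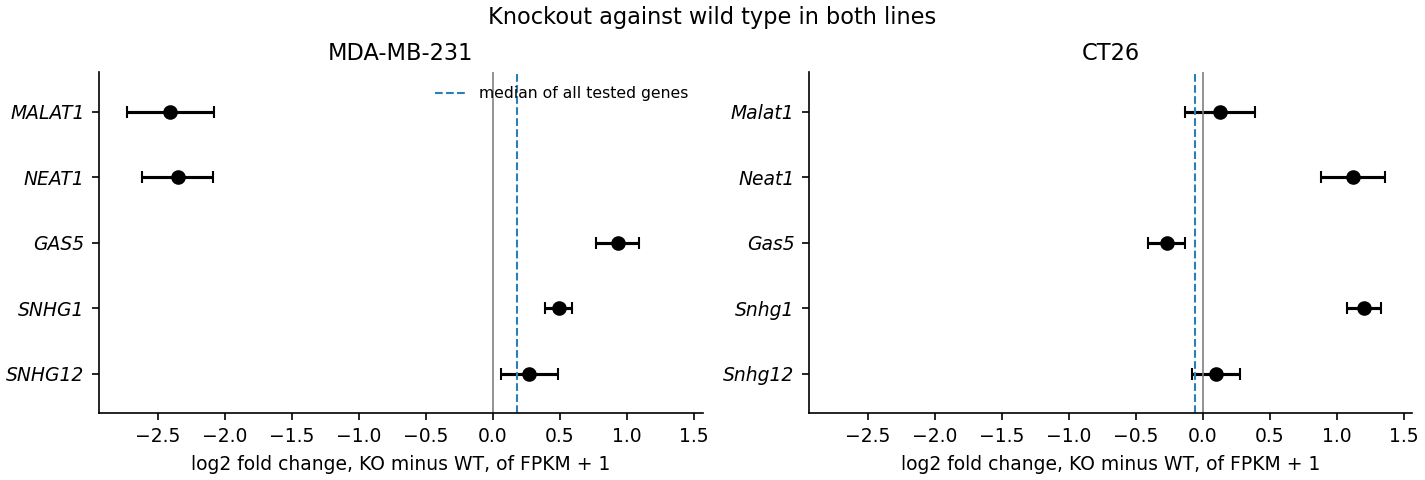
Log2 fold change of FPKM + 1, KO minus WT, with the 95% interval from limma (bars, n = 4 per group) for the 5 expressed members in each line; the dashed line is the median of all tested genes. NEAT1 lies at -2.35 in MDA-MB-231 and at 1.12 in CT26, and GAS5 at 0.93 and -0.27.

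The snoRNA host genes GAS5 and SNHG1 rose in MDA-MB-231 KO cells, and SNHG12 differed little more than the median gene. GAS5 (ENSG00000234741, hg38 chromosome 1, 173863900 to 173868882, minus strand), first found as a transcript that builds up in growth-arrested cells, has up to 13 exons. SNHG1 (ENSG00000255717, chromosome 11, 62851988 to 62855914, minus strand) has 7 annotated snoRNAs on its own strand within it and starts 187 bases from SLC3A2, which runs the other way. SNHG12 (ENSG00000197989, chromosome 1, 28578538 to 28583132, minus strand) holds 5 annotated snoRNAs. Their RefSeq windows are shown because host transcripts of this class are known for a 5′ terminal oligopyrimidine tract, a run of C and T beginning with C at the first transcribed base. The windows cover GRCh38.p14 chr1:173868996-173869295, chr11:62855836-62856135 and chr1:28581824-28582123, each on the minus strand and written 5′ to 3′, and the capitals mark the first 12 transcribed bases.
GAS5: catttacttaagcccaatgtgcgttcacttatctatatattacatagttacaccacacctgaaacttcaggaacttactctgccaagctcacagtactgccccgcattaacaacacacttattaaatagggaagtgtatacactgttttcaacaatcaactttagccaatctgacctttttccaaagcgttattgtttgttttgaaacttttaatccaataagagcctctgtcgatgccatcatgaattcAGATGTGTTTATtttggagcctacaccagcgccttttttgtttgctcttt
SNHG1: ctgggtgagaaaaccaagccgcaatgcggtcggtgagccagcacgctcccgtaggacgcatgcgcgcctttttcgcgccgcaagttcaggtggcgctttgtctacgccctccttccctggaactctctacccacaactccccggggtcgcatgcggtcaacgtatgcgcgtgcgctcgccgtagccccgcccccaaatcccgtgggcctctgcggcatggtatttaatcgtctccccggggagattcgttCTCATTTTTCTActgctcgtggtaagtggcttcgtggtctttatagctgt
SNHG12: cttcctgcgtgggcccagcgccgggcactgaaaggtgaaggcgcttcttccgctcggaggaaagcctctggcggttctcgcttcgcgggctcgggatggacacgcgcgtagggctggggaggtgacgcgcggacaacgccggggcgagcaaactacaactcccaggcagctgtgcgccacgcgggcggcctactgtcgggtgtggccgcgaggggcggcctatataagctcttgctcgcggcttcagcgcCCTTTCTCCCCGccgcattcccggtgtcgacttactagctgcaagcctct
The run of C and T from the first base was 11 bases long in SNHG12, 3 in SNHG1 and 0 in GAS5 at these RefSeq starts, the GAS5 start lying upstream of its GENCODE 29 gene. A run of 5 or more beginning with C stands at 4.07% of all RefSeq starts. CCAAT, read on both strands, occurs 3 times in the GAS5 window, which 34.6% of all windows hold, and GGGCGG once in SNHG1 and 2 times in SNHG12. The G and C share was 37.7% in GAS5, against 60.0% in SNHG1 and 67.3% in SNHG12.

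In MDA-MB-231, GAS5 measured 441, 439, 372 and 383 FPKM in KO libraries, against 211, 226, 198 and 219 FPKM in WT libraries. The groups did not overlap, and the KO mean of 409 ± 36.3 FPKM was 1.91 times the WT mean of 213 ± 12.2 FPKM (SD, n = 4 each). The log2 change was 0.93 (SE 0.07, 95% interval 0.77 to 1.09, limma adjusted p = 3.96e-06), 0.75 above the median gene. SNHG1 measured 282, 278, 270 and 262 FPKM in KO libraries, against 192, 186, 193 and 205 FPKM in WT libraries. These groups too were separate, with a log2 change of 0.49 (SE 0.043, 95% interval 0.39 to 0.59, limma adjusted p = 1.15e-05), 0.31 above the median. SNHG12 measured 58.1, 55.4, 48.8 and 59.1 FPKM in KO libraries, against 46.9, 48.2, 38.5 and 49.4 FPKM in WT libraries. The lowest KO library lay below the highest WT library. Its log2 change of 0.27 (SE 0.093, limma adjusted p = 0.0274) was 0.09 above the median and lost its call under upper-quartile scaling (0.059, adjusted p = 0.608), quantile normalization (0.046, adjusted p = 0.689) and without KO library 1, 2 or 4 or WT library 3 (0.19 to 0.33 over all single-library omissions). GAS5 overlaps ZBTB37 and GAS5-AS1 on the opposite strand, and the sources used here do not give whether the libraries kept strand, so reads of opposite genes cannot be told apart. Both were low, ZBTB37 at 0.946 to 1.76 FPKM in KO libraries and 0.572 to 0.874 FPKM in WT libraries, and GAS5-AS1 at 0 to 0.430 FPKM in KO libraries and 0.349 to 0.583 FPKM in WT libraries.

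In CT26, Snhg1 was strongly higher in KO cells while Gas5 was modestly lower. Snhg1 (ENSMUSG00000108414, mm10 chromosome 19, 8723475 to 8726443) measured 227, 213, 238 and 254 FPKM in KO libraries, against 97.7, 104, 95.9 and 104 FPKM in WT libraries. The groups were far apart, with a KO mean 2.32 times the WT mean and a log2 change of 1.20 (SE 0.056, 95% interval 1.07 to 1.33, limma adjusted p = 1.13e-06), the 324th by size. Gas5 (ENSMUSG00000053332, chromosome 1) measured 292, 286, 308 and 321 FPKM in KO libraries, against 393, 355, 380 and 332 FPKM in WT libraries. Its groups did not overlap but came within a few percent of each other, and the KO mean was 82.8% of the WT mean. Gas5 fell by 0.27 (SE 0.059, 95% interval -0.41 to -0.13, limma adjusted p = 0.00473), and under upper-quartile scaling the change was -0.18 with an adjusted p of 0.0580. Snhg12 (ENSMUSG00000086290, chromosome 4) measured 39.7, 37.5, 41.2 and 45.6 FPKM in KO libraries, against 37.0, 40.6, 41.5 and 34.1 FPKM in WT libraries. These overlapped, and the difference of 0.10 (95% interval -0.08 to 0.28, limma adjusted p = 0.322) did not pass the test.

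For MDA-MB-231, MALAT1, NEAT1, GAS5 and SNHG1 each have a q value of 1.50e-04 in the authors' deposited table, and SNHG12 has 0.0706. For CT26, the authors' deposited table gives a q value of 2.14e-04 for Neat1 and Snhg1, 0.00505 for Gas5, 0.403 for Snhg12 and 0.590 for Malat1. SNHG12 in MDA-MB-231 is thus the member whose call differs between the limma fit and the authors' test.

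Most other snoRNA host genes rose with GAS5 and SNHG1 in MDA-MB-231 KO cells. Of 21 tested host gene rows, 18 were higher (85.7%, against 42.6% of all tested genes), 2 were lower and 1 did not pass, with a median log2 change of 0.91 beside 0.18 for all genes. SNHG5, a host of C/D box snoRNAs and the most abundant of the list, averaged 1078 ± 46.1 FPKM in KO libraries and 359 ± 26.6 FPKM in WT libraries (log2 change 1.59, SE 0.058, limma adjusted p = 5.57e-08). DANCR, a host gene also known as an RNA that holds back differentiation, averaged 123 ± 4.73 FPKM in KO libraries and 51.6 ± 2.84 FPKM in WT libraries (1.24, SE 0.053, adjusted p = 1.28e-07). SNHG15 averaged 87.2 ± 6.61 FPKM in KO libraries and 33.3 ± 1.22 FPKM in WT libraries (1.36, SE 0.062, adjusted p = 1.98e-07). The exceptions were SNHG18, which reached the filter through the WT libraries alone and was listed at 0 in 3 KO libraries and at 0.165 FPKM in the fourth, against 3.62 to 4.05 FPKM in WT libraries, and SNHG26, at 3.66 to 6.03 FPKM in KO libraries and 6.89 to 8.61 FPKM in WT libraries (adjusted p = 0.00423). Under upper-quartile scaling 15 rose and 2 fell. Among the 21 list symbols with a RefSeq window, 5 had a start with C first and a run of 5 or more pyrimidines, against 5.14% of all symbols: SNHG4, SNHG5, SNHG19 and ZFAS1, which rose, and SNHG18, the gene that reached the filter through WT libraries alone.

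The host genes of CT26 were divided. Of 15 tested rows 5 rose (33.3%, against 22.3% of all tested genes), 3 fell (20.0%, against 33.5%) and 7 did not pass, with a median of 0.23 beside -0.06. Those that rose were Snhg15, at 88.7 ± 4.54 FPKM in KO libraries and 59.5 ± 2.85 FPKM in WT libraries (log2 change 0.57, limma adjusted p = 2.37e-05), Snhg18 (0.71), Snhg8 (0.43), Epb41l4aos (0.54) and Snhg17 (0.29). Those that fell were Snhg6, at 37.8 ± 1.47 FPKM in KO libraries and 58.9 ± 2.03 FPKM in WT libraries (-0.63, adjusted p = 5.47e-06), Snhg3 (-0.48) and Snhg20 (-0.36). SNHG3 and SNHG6 (0.27 in MDA-MB-231) rose in MDA-MB-231 and fell in CT26, and SNHG20 fell in CT26 while its 0.30 in MDA-MB-231 did not pass (adjusted p = 0.0641). These genes were picked after their values were seen, and the differences between lines are not given. For SNHG18 the directions are not compared, since in MDA-MB-231 it reached the filter through the WT libraries alone.

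**Figure D3:**
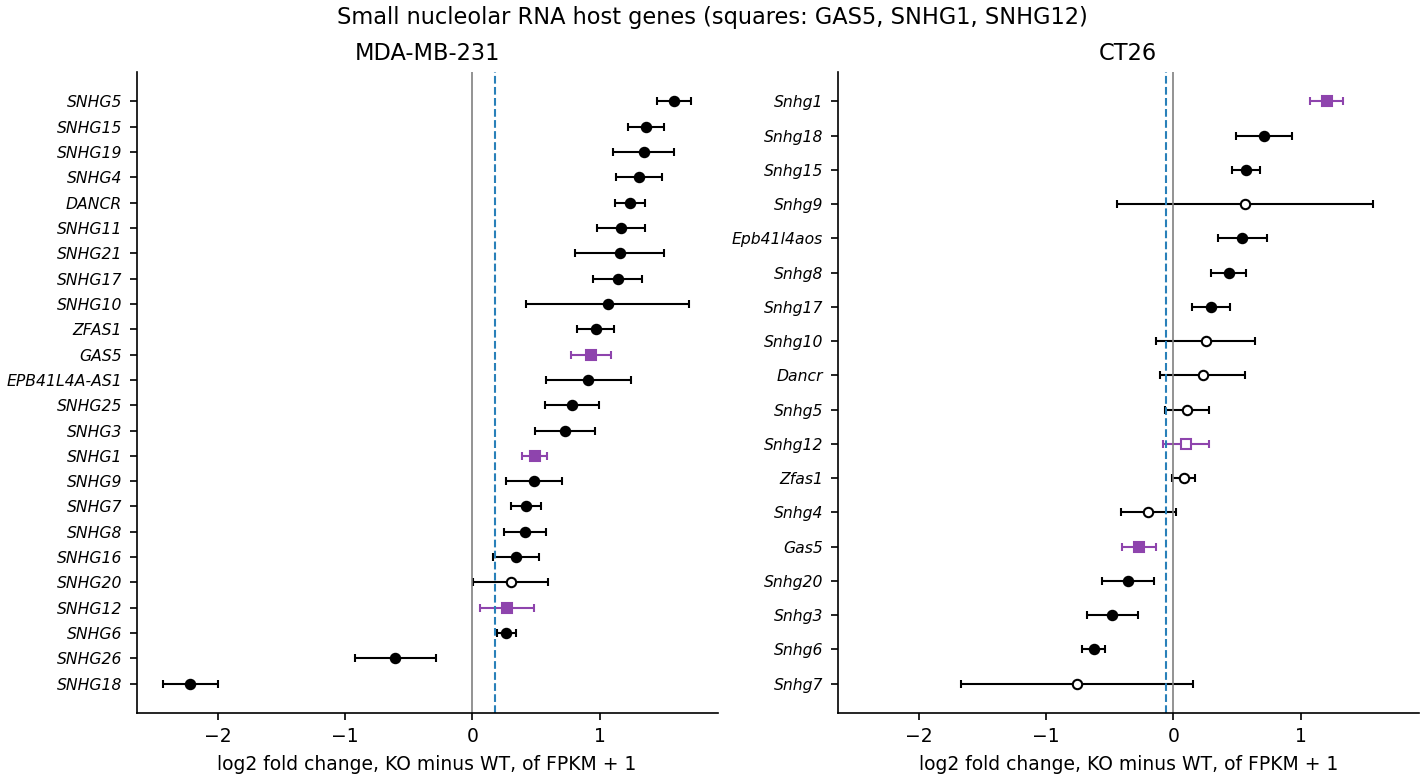
Log2 fold change of FPKM + 1, KO minus WT, with the 95% interval from limma, for the tested snoRNA host genes of each line, sorted by size; squares mark GAS5, SNHG1 and SNHG12, filled symbols pass an adjusted p of 0.05, and the dashed line is the median of all tested genes. In MDA-MB-231 the symbols lie right of 0 apart from SNHG26 and SNHG18, while in CT26 they spread to both sides from -0.76 to 1.20.

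The snoRNAs themselves were poorly measured: of 11 listed snoRNA rows in MDA-MB-231, 2 passed the filter and 6 were listed at 0 in the 8 libraries. Snord22, hosted by Snhg1, had 171, 299, 284 and 145 FPKM in CT26 KO libraries, against 134, 11.7, 41.7 and 64.7 FPKM in WT libraries, with the groups apart but close (log2 change 2.2, SE 0.65, limma adjusted p = 0.0194). It was the only 1 called of 3 hosted snoRNA rows tested in CT26 (33.3%, against 22.3% of all tested genes higher). The other 2 did not pass, and the lowest change was -1.03. In MDA-MB-231 the difference of SNORD22 did not pass (1.40, adjusted p = 0.0587). Nor did that of SNORA61, hosted by SNHG12, which had the opposite sign (-2.43, adjusted p = 0.273). Such short genes share reads with their host introns.

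Genes of NMD, the decay route of spliced host transcripts, rose in MDA-MB-231 KO cells along with the host genes. Of 18 tested factors 16 rose (88.9%, against 42.6% of all tested genes), none fell and 2 did not pass, with a median of 0.64 beside 0.18 for all genes, and under upper-quartile scaling 12 rose and 1 fell. RNPS1, an exon junction protein, averaged 144 ± 3.10 FPKM in KO libraries and 69.8 ± 2.39 FPKM in WT libraries (log2 change 1.03, limma adjusted p = 8.39e-08). EIF4A3, the junction helicase, averaged 153 ± 4.39 FPKM in KO libraries and 83.5 ± 4.41 FPKM in WT libraries (0.86, adjusted p = 6.47e-07). In CT26 5 of 18 rose (27.8%, against 22.3% of all tested genes), 6 fell (33.3%, against 33.5%) and 7 did not pass, with a median of -0.07 beside -0.06, and under upper-quartile scaling 7 rose and 4 fell. Upf2 fell by 0.38 (adjusted p = 1.08e-04), while Magohb rose by 0.30 (adjusted p = 5.92e-04).

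Of 20 tested genes for paraspeckle proteins, which assemble on NEAT1, 15 rose in MDA-MB-231 KO cells (75.0%, against 42.6% of all tested genes), 2 fell and 3 did not pass, with a median of 0.51 beside 0.18, and 14 rose and 4 fell under upper-quartile scaling. NUDT21, a subunit of the cleavage factor that governs NEAT1 polyadenylation, averaged 186 ± 6.05 FPKM in KO libraries and 47.6 ± 3.87 FPKM in WT libraries (log2 change 1.95, SE 0.062, limma adjusted p = 2.48e-08). Of the core paraspeckle proteins SFPQ, NONO and PSPC1, SFPQ (0.91, adjusted p = 1.04e-07) and PSPC1 (0.94, adjusted p = 7.47e-07) rose. NONO fell, at 348 to 421 FPKM in KO libraries against 428 to 474 FPKM in WT libraries (-0.24, adjusted p = 0.00882), as did RBM3 (-0.53, adjusted p = 1.68e-05). In CT26, where Neat1 rose, 3 of 20 rose (15.0%, against 22.3% of all tested genes), 7 fell (35.0%, against 33.5%) and 10 did not pass, with a median of -0.05 beside -0.06, and 7 rose and 5 fell under upper-quartile scaling. Rbm3, a cold-shock RNA-binding protein, averaged 172 ± 5.12 FPKM in KO libraries and 299 ± 9.64 FPKM in WT libraries (-0.79, adjusted p = 7.12e-07), and Tardbp fell by 0.48 (adjusted p = 5.11e-06).

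Of 8 genes for MALAT1 processing or nuclear speckles, 6 rose in MDA-MB-231 KO cells (75.0%, against 42.6% of all tested genes), none fell and 2 did not pass; under upper-quartile scaling 6 rose and 1 fell. The splicing factor SRSF7 averaged 202 ± 6.13 FPKM in KO libraries and 103 ± 2.21 FPKM in WT libraries (log2 change 0.97, limma adjusted p = 8.57e-08), and SRSF1, which binds MALAT1, rose by 0.69 (adjusted p = 5.98e-07). In CT26 1 of 8 rose (12.5%, against 22.3% of all tested genes), Elac2, a tRNA 3′ processing enzyme (0.19, adjusted p = 0.0335). Son (-0.31) and Mettl16 (-0.33), 2 of 8, fell (25.0%, against 33.5%), and 5 did not pass. Under upper-quartile scaling 3 rose and 2 fell, and the rise of Elac2 was lost without KO library 2, 3 or 4 or WT library 1 or 4.

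The imprinted RNAs H19, MEG3 and KCNQ1OT1 were listed below 1 FPKM in each library of both lines. H19 (ENSG00000130600, hg38 chromosome 11, 1995176 to 2001470, minus strand) measured 0.725, 0.456, 0.313 and 0.370 FPKM in MDA-MB-231 KO libraries, against 0.138, 0, 0.294 and 0.166 FPKM in WT libraries. The KO libraries were the higher ones without overlap, though KO library 3 and WT library 3 were close. An exact two-sided permutation test on log2(FPKM + 1) gave p = 0.0286, the smallest that 70 assignments allow and 1 of 4 such tests, unadjusted. Under upper-quartile scaling it was 0.0571, and without any of KO libraries 1 to 4 or WT library 1 or 2 also 0.0571. MEG3 (ENSG00000214548, chromosome 14, 100779410 to 100861031, plus strand) was listed at 0, 0, 0.0272 and 0.771 FPKM in KO libraries, against 0.00834, 0, 0.212 and 0 FPKM in WT libraries. A single library in each group carried nearly the whole signal (exact permutation p = 0.714), and without KO library 4 the log2 difference of 0.14 became -0.059. KCNQ1OT1 (ENSG00000269821, chromosome 11, 2608328 to 2699994, minus strand), an unspliced RNA of 91667 annotated bases inside KCNQ1, had 0.00823, 0.00863, 0.0213 and 0.0103 FPKM in KO libraries, against 0.0176, 0.0241, 0.0223 and 0.0135 FPKM in WT libraries. KO library 3 lay among the WT libraries (exact permutation p = 0.114).

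In CT26, H19 (mm10 chromosome 7) was listed at 0 in the 8 libraries, and Meg3 (chromosome 12) at 0 in 7 of them and at 0.00369 FPKM in WT library 1. Kcnq1ot1 (chromosome 7) had 0.0135, 0.0123, 0.0129 and 0.00741 FPKM in KO libraries, against 0.00972, 0.0164, 0.0210 and 0.0139 FPKM in WT libraries, with overlap (exact permutation p = 0.229; without WT library 1, p = 0.0286). At the level of Kcnq1ot1 a difference was not detectable, and since 6 mitochondrial mRNAs are listed at 0 in the same table, a listed 0 is not read as low expression.

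**Figure D4:**
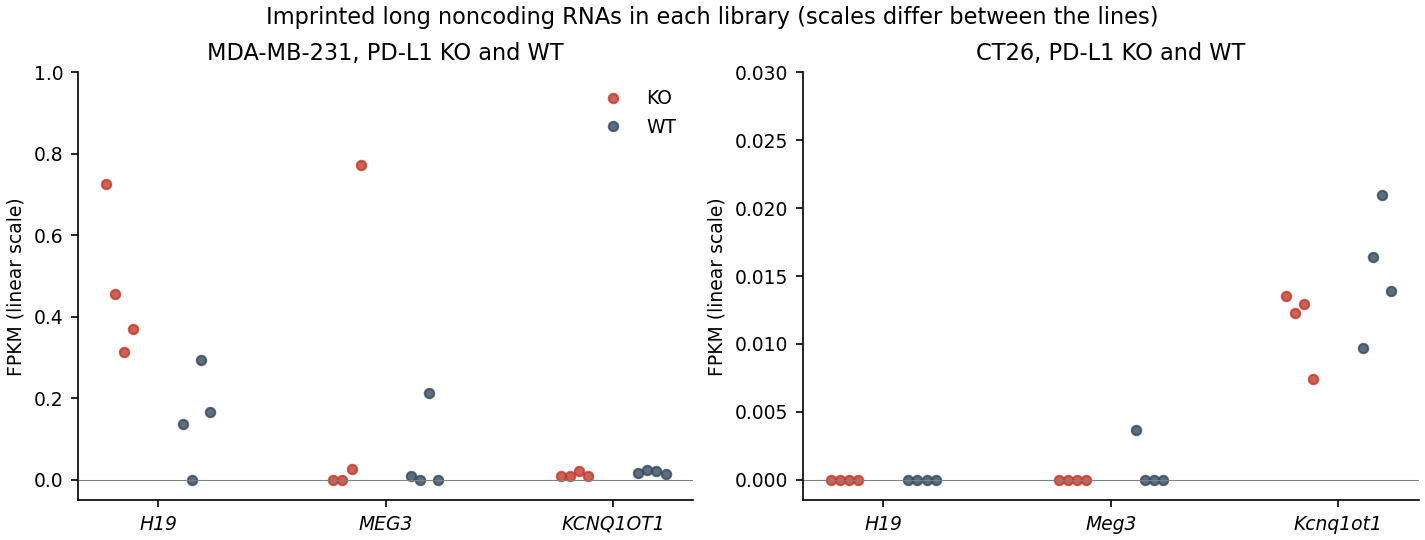
FPKM (linear axes, with different scales in the 2 lines) of H19, MEG3 and KCNQ1OT1 in each library, KO left of WT, MDA-MB-231 on the left and CT26 on the right. The highest value is 0.771 FPKM, MEG3 in MDA-MB-231 KO library 4, and in CT26 the highest is 0.0210 FPKM.

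Other imprinted genes that were expressed changed in both directions in MDA-MB-231. Of 14 tested rows 6 were higher (42.9%, near the 42.6% of all genes), 4 were lower and 4 did not pass. Of the 6, IGF2 and MKRN3 reached the filter through the KO libraries alone, so the share is read no further. In this list 13 of 32 rows were listed at 0 throughout. PEG10, a retrotransposon-derived gene expressed from the paternal allele, averaged 110 ± 9.42 FPKM in KO libraries and 21.3 ± 1.59 FPKM in WT libraries (log2 change 2.31, limma adjusted p = 3.25e-08). PHLDA2, a growth-restraining gene of the KCNQ1OT1 domain, averaged 228 ± 18.6 FPKM in KO libraries and 79.6 ± 6.67 FPKM in WT libraries (1.51, adjusted p = 3.71e-07). IGF2, the growth factor gene that shares enhancers with H19, measured 1.71, 1.21, 1.34 and 1.26 FPKM in KO libraries, against 0.155, 0.0102, 0.0524 and 0.0438 FPKM in WT libraries. MKRN3, named because of the filter, ranged from 1.53 to 2.93 FPKM in KO libraries and from 0 to 0.502 FPKM in WT libraries. GRB10, an adaptor that dampens insulin signalling, fell to 9.58 ± 0.648 FPKM in KO libraries, against 22.1 ± 2.56 FPKM in WT libraries (-1.12, adjusted p = 8.81e-06), and SLC22A18 (-1.02), IGF2R (-0.25) and L3MBTL1 (-0.71) were lower too. KCNQ1, the channel gene that holds KCNQ1OT1, was listed at 0 in the 4 KO libraries and at 0.238, 0.403, 0.151 and 0 FPKM in WT libraries. In CT26, 3 of 29 rows passed the filter and 13 were listed at 0 throughout. Impact, expressed from the paternal allele in mouse, measured 17.5, 16.1, 17.1 and 16.04 FPKM in KO libraries, against 39.3, 40.8, 40.6 and 39.7 FPKM in WT libraries (-1.22, adjusted p = 2.32e-07), the groups being far apart, and Gnas fell by 0.24 (adjusted p = 7.65e-04).

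Of the genes that maintain imprints, 4 of 5 tested rose in MDA-MB-231 (80.0%, against 42.6% of all tested genes) and none fell. They were TRIM28, the corepressor bound at imprinted loci (log2 change 1.01, limma adjusted p = 8.29e-08), CTCF, the insulator protein of the H19 locus (0.96, adjusted p = 9.94e-07), the DNA methyltransferase DNMT1 (0.46) and its partner UHRF1 (0.44). In CT26, against 22.3% of all tested genes higher and 33.5% lower, 1 of 6 rose (Ctcf, 0.16, adjusted p = 0.0397) and 2 fell (Zfp445, -0.22, and Dnmt1, -0.16), and neither fall held under upper-quartile scaling. The rise of Ctcf was lost on leaving out any library other than WT library 4, and at most 1 fall remained on leaving out any 1 library.

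Genes around NEAT1 and MALAT1 were mostly lower in MDA-MB-231 KO cells. Of 16 tested neighbours 11 fell (68.8%, against 25.7% of all tested genes), 2 rose and 3 did not pass, with a median of -0.49 beside 0.18. CDC42EP2, an effector of the GTPase CDC42 centred 179 kb upstream of the MALAT1 start, averaged 11.6 ± 0.684 FPKM in KO libraries and 31.9 ± 1.94 FPKM in WT libraries (log2 change -1.39, limma adjusted p = 2.88e-07). CAPN1, a calcium-dependent protease centred 301 kb upstream, averaged 40.1 ± 1.61 FPKM in KO libraries and 105 ± 14.4 FPKM in WT libraries (-1.35, adjusted p = 2.51e-06). DPF2 (0.23, adjusted p = 0.00886) and SSSCA1 (0.27, adjusted p = 0.00310) rose; under upper-quartile scaling none rose and 13 fell. The falls of the neighbours, at most 1.39, were smaller than those of MALAT1 and NEAT1. In CT26 3 of 16 rose (18.8%, against 22.3% of all tested genes), Capn1 (0.48, adjusted p = 1.80e-05), Sipa1 (0.23) and Pola2 (0.15). Rela (-0.17) and Dpf2 (-0.24), 2 of 16, fell (12.5%, against 33.5%), and 11 did not pass. The count was 5 higher and 0 lower under upper-quartile scaling.

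**Figure D5:**
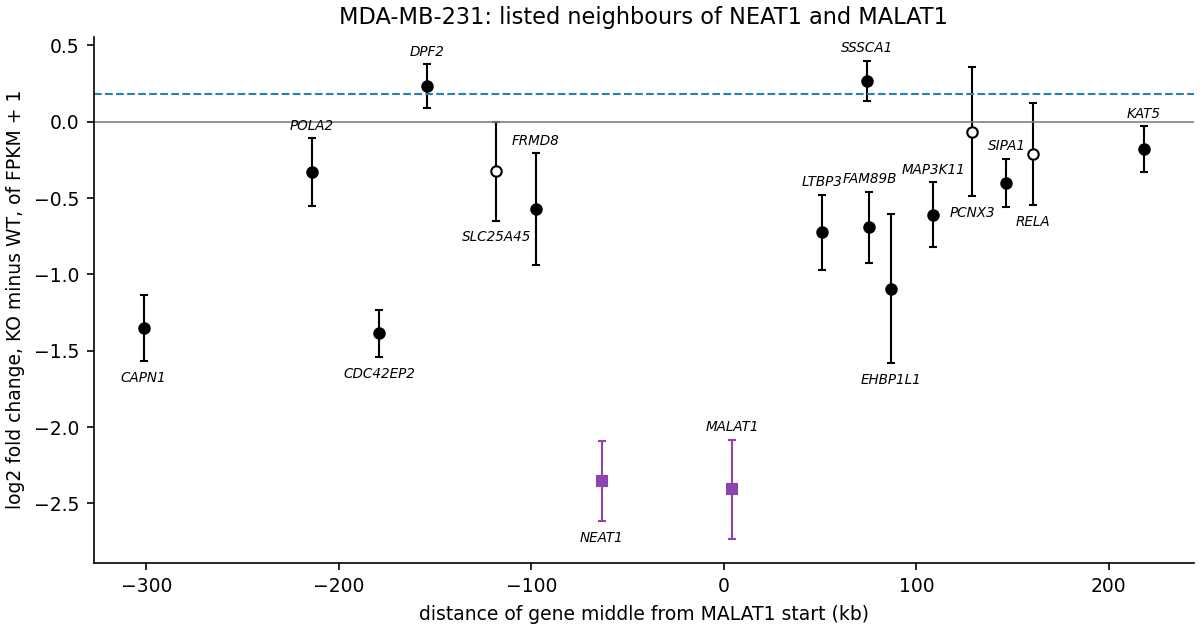
Log2 fold change of FPKM + 1, KO minus WT, in MDA-MB-231 with the 95% interval from limma, against the distance in kb of each gene's middle from the start of MALAT1; squares mark NEAT1 and MALAT1, filled symbols pass an adjusted p of 0.05, and the dashed line is the median of all tested genes. NEAT1 and MALAT1 lie at -2.35 and -2.41, the neighbours plotted between -1.39 and 0.27.

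Genes around SNHG1 rose with it in CT26. Each of the 5 tested neighbours was higher in KO cells, where 22.3% of all tested genes were, with a median of 0.72 beside -0.06: Wdr74, a ribosome assembly factor next to Snhg1, at 70.6 ± 2.25 FPKM in KO libraries and 38.5 ± 3.51 FPKM in WT libraries (log2 change 0.86, limma adjusted p = 1.10e-05), Polr2g, an RNA polymerase II subunit (0.72), Ttc9c (0.80), the mRNA export factor Nxf1 (0.57) and the amino acid transporter chain Slc3a2 (0.10). In MDA-MB-231 6 of 9 rose (66.7%, against 42.6% of all tested genes), 1 fell and 2 did not pass, and under upper-quartile scaling 5 rose and 2 fell. WDR74 averaged 96.9 ± 5.25 FPKM in KO libraries and 41.2 ± 2.41 FPKM in WT libraries (1.21, adjusted p = 2.95e-07), SLC3A2 rose by 0.58 on the log2 scale (adjusted p = 2.84e-05), and the gene that fell was STX5, a Golgi SNARE (-0.53, adjusted p = 3.54e-05).

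Around GAS5 in MDA-MB-231, 3 of 6 tested neighbours rose (a share near the 42.6% of all tested genes), among them CACYBP, a calcyclin-binding protein (log2 change 0.87, limma adjusted p = 6.30e-06) and KLHL20 (0.51), and 3 did not pass. In CT26 5 of 7 fell (71.4%, against 33.5% of all tested genes), Cacybp (-0.77, adjusted p = 1.44e-06), Cenpl (-0.61), Klhl20 (-0.25), Zbtb37 (-0.62) and Rc3h1 (-0.16), and 3 fell without KO library 3 or 4 or WT library 1 or 4. Around SNHG12 in MDA-MB-231, 3 of 7 tested neighbours rose (42.9%, near the 42.6% of all tested genes). They were RCC1, the exchange factor of RAN (0.94, adjusted p = 2.44e-07), the host gene SNHG3 (0.73) and PHACTR4 (0.24). TRNAU1AP, which overlaps SNHG12 on the opposite strand (-1.10, adjusted p = 9.84e-06), and TAF12 (-0.75) fell (28.6%, against 25.7%), and 2 did not pass. TRNAU1AP averaged 16.3 FPKM in KO libraries and 35.9 FPKM in WT libraries, beside 55.3 and 45.7 FPKM for SNHG12. The 2 levels were thus nearer in WT libraries than in KO libraries. Reads from the stretch shared by these genes cannot be told apart without strand. In CT26 2 of 7 rose (28.6%, against 22.3% of all tested genes), Gmeb1 (0.27) and Trnau1ap (0.26). Ythdf2 (-0.28), Snhg3 (-0.48) and Phactr4 (-0.21), 3 of 7, fell (42.9%, against 33.5%), and 2 did not pass.

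Around H19 and KCNQ1OT1, 2 of 10 tested neighbours were higher in MDA-MB-231 (20.0%, against 42.6% of all tested genes), the imprinted PHLDA2 and IGF2 given above. IGF2 reached the filter through the KO libraries alone, so this share is read no further. SLC22A18, CD81 (log2 change -0.22, limma adjusted p = 0.00245) and OSBPL5 (-0.95, adjusted p = 0.00304) fell (30.0%, against 25.7%), and 5 fell under upper-quartile scaling. In CT26 Nap1l4 (-0.40, adjusted p = 0.00899) and Cars (-0.10, adjusted p = 0.0237) fell (28.6%, against 33.5% of all tested genes), none rose and 5 of 7 did not pass. The balance turned with scaling: 2 rose and 1 fell under upper-quartile scaling and likewise under quantile normalization, and 1 fell without KO library 1 or 4 or WT library 3.

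Genes whose level followed a member most closely over the 8 libraries of a line are given as a description, since these points share the contrast of KO with WT. In MDA-MB-231, among 9648 genes, MALAT1 was nearest to MDGA1 (Pearson r = 0.997), SEC31A (0.996) and NEAT1 itself (0.995). MDGA1 averaged 0.405 FPKM in KO libraries and 9.72 FPKM in WT libraries. It thus passed the filter on the strength of the WT libraries, and its place is read no further. NEAT1 was nearest to ARSA (r = 0.998) and GAS6 (0.997). GAS5 was nearest to RNASEH1-AS1, C11orf98 and SRP14 (each r = 0.998), and SNHG1 to DUSP7 (0.997), ARHGAP1 (0.997) and AFAP1-AS1 (0.996). SNHG12 was nearest to SDF2 (0.978), DOT1L (0.969) and WASHC4 (0.961). In CT26, among 8356 genes, Neat1 was nearest to Tnfrsf10b and Slx4 (each r = 0.995) and Klf3 (0.993), and Snhg1 to Klf2 (0.998), Snapc1 (0.997) and Fosl1 (0.997). Gas5 was nearest to Tns1 (0.982), Clk1 (0.979) and Commd7 (0.970). Malat1 was nearest to Fbxo7 (0.956), Hnrnpl (0.943) and Ammecr1l (0.943), and Snhg12 to Nsun6 (0.939), Dcun1d3 (0.910) and Zfp87 (0.903). No gene was among the nearest 3 in both lines.

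Measures of RNA makeup moved with genotype as well. The summed FPKM of 13 mitochondrial mRNAs ran from 32902 to 58451 in MDA-MB-231 KO libraries and from 54218 to 63081 in WT libraries. Of the 13, 7 were lower (53.8%, against 25.7% of all tested genes), led by MT-ND6 (log2 change -1.85, limma adjusted p = 1.13e-05). In CT26 the sum ran from 7945 to 10709 in KO libraries and from 13241 to 16002 in WT libraries. There 6 of 12 rows were listed at 0. Of the 6 tested, 3 were lower, against 33.5% of all tested genes. That count ran from 2 to 6 over the alternative runs and is read no further. Leukocyte markers were near 0 other than CD14: PTPRC, CD3E and NKG7 were at 0 in MDA-MB-231 KO libraries, and the 8 markers summed to 0.427 to 0.944 FPKM in KO libraries and 2.68 to 4.13 FPKM in WT libraries. In CT26 that sum was 49.6 to 56.5 FPKM in KO libraries and 16.03 to 18.99 FPKM in WT libraries, nearly all from Cd14. Fibroblast and endothelial markers, 7 in all, summed to 1.94 to 4.37 FPKM in MDA-MB-231 KO libraries and 2.99 to 4.96 FPKM in WT libraries, and 6 neural and melanocyte markers to 4.49 to 5.51 FPKM in KO libraries and 2.99 to 4.01 FPKM in WT libraries. Vimentin (VIM), high in MDA-MB-231, averaged 2545 FPKM in KO libraries and 1113 FPKM in WT libraries, and the epithelial marker CDH1 0.311 FPKM in KO libraries and 4.15 FPKM in WT libraries. They belong to a list that mixes markers expected high in this line with markers expected low, of which 6 genes were tested. VIM was the only 1 higher (16.7%, against 42.6% of all tested genes), and 5 were lower (83.3%, against 25.7%). CDH1 is among the 5 and reached the filter on the strength of the WT libraries, so the share lower is read no further. VIM and CDH1 are therefore not read as a shift of cell state. The part of these shifts in the changes of the long noncoding RNAs was not tested, and in bulk RNA fewer cells of a type and less RNA per cell cannot be told apart.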

How the data were processed

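RNA of 16 libraries was sequenced, 4 per group. Per the submitters' processing notes the tools were bcl2fastq 2.18, STAR 2.5.4a, Cufflinks 2.2.1 and Cuffdiff, with builds hg38 and mm10. The authors deposited FPKM per gene and library, with a p-value and q-value per gene from their own comparison, in 1 table per line, normalized separately. FPKM keeps no absolute depth, which limits what can be said of low genes, and the sources used here do not give strandedness.

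From these values log2(FPKM + 1) was computed, genes marked HIDATA (13 human, 210 mouse) were left out, and genes with at least 1 FPKM in 4 of 8 libraries were tested with limma 3.58.1 (with an intensity trend, R 4.3.3) with Benjamini-Hochberg adjustment over all genes of the table, at 0.05. The line difference was the interaction in 1 limma fit over symbol-paired genes. Members under the filter got an exact two-sided permutation test over 70 assignments. The fits were tested on simulated data. List genes were named if called, the 4 lowest adjusted p per list and line, or each called gene where a direction held 5 or fewer. Members and lists were chosen with earlier results of these data known. Alternatives were pseudocounts of 0.1 and 5, no filter, a filter of 5 FPKM, upper-quartile scaling, quantile normalization, a replicate block and leaving out each library. Figures and sequence searches used Python 3.11.15 and matplotlib 3.10.9. Positions came from GENCODE 29 for human and the deposited locus for mouse. Results for a few genes are not reported here.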

Additional observations from a re-analysis of the deposited data

Results flagged for a closer look

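The difference of KO from WT differed between the lines for 4 of the 5 tested members in the interaction test (MDA-MB-231 minus CT26, log2 scale): NEAT1 (-3.47), MALAT1 (-2.53), GAS5 (1.20) and SNHG1 (-0.71). Such calls were common, at 72.2% of 8667 paired genes, so the count is not read as particular to the members.

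Single libraries lay far from the other 3 of their group in several groups. With normally distributed values chance does this in about 1 in 20 groups. The number of groups searched is not given, so these cases are not set against that rate. A group with 1 value above 0 meets the rule by construction, as for SNHG18 in MDA-MB-231 and Meg3 in CT26. In MDA-MB-231 the imprinted members gave 3 of them: MEG3 at 0.771 FPKM in KO library 4, MEG3 at 0.212 FPKM in WT library 3 and KCNQ1OT1 at 0.0213 FPKM in KO library 3. In CT26, Meg3 was at 0.00369 FPKM in WT library 1 and at 0 in the others. Among listed genes of MDA-MB-231, KO library 3 was lowest for RBM3 (293 FPKM), SLC3A2 (283 FPKM) and RF01955 (232 FPKM), and KO library 4 highest for SNHG18 (0.165 FPKM). WT library 1 was lowest for GRB10 (18.3 FPKM) and TRNAU1AP (32.9 FPKM), and WT library 4 for RF01957 (0 FPKM). In CT26, KO library 3 was highest for Snhg15 (95.5 FPKM) and lowest for Mettl16 (14.04 FPKM) and Sipa1 (16.8 FPKM), and KO library 4 lowest for mt-Nd1 (2820.1 FPKM). WT library 3 was highest for Snhg17 (55.9 FPKM) and lowest for Dpf2 (72.8 FPKM) and Nap1l4 (135 FPKM), and WT library 4 highest for Capn1 (31.6 FPKM).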

How the results depend on the processing

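MALAT1, NEAT1, GAS5 and SNHG1 in MDA-MB-231, and Neat1 and Snhg1 in CT26, kept direction and call under each alternative run. MALAT1 ran from -2.62 to -2.13 and NEAT1 from -2.58 to -2.27, while SNHG1 in MDA-MB-231 was 0.27 under upper-quartile scaling and 0.23 under quantile normalization, against 0.49. SNHG12 in MDA-MB-231 lost its call without a filter (0.27), under upper-quartile scaling (0.059) and quantile normalization (0.046), and gave 0.19 to 0.33 on leaving out single libraries. Gas5 in CT26 lost its call under upper-quartile scaling (-0.18). The line difference of SNHG12, never called, turned to -0.13 under upper-quartile scaling and -0.13 under quantile normalization. H19 was 0.30 under upper-quartile scaling and 0.27 to 0.41 on leaving out single libraries (exact p from 0.0286 to 0.0571). On leaving out single libraries MEG3 gave -0.059 to 0.22, turning without KO library 4, and Kcnq1ot1 in CT26 -0.0079 to -0.0026. At these low levels the pseudocount sets the size: with 0.1 and 5, H19 was 1.29 and 0.086, MEG3 0.43 and 0.038, KCNQ1OT1 -0.091 and -0.0021 and Kcnq1ot1 -0.047 and -0.0011. The cause was not tested. Same-numbered KO and WT libraries correlated at -0.037 to 0.004 in MDA-MB-231, so the numbers did not pair them there. In CT26 they correlated at 0.027 to 0.078, and each library correlated best with its own number. A weak pairing in CT26 is therefore not excluded, and the main fit did not model it. A replicate block called 9648 genes in MDA-MB-231, 6032 in CT26 and 6230 for the line difference, and changed no member's call. Over the other alternatives 7755 to 11115 genes were called in MDA-MB-231 and 5443 to 6350 in CT26. Unknown depth and values under 1 FPKM limit what can be said of H19, MEG3 and KCNQ1OT1.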
